A study of Mus musculus with 18 samples.

Results

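The 6 arrays of mouse ovarian follicles cultured with vehicle alone, out of 18 arrays in all, were ranked gene by gene by brightness. The follicles, preantral to small antral, came from female C57BL/6Ntac mice of 6 to 8 weeks, and the follicles of 7 mice were pooled for each biological sample. Each pool was divided over drop cultures without anti-Müllerian hormone (AMH) or with 50 or 200 ng/mL of it. All cultures, vehicle included, were in medium with 80 IU/L of follicle-stimulating hormone (FSH) and 10 IU/L of luteinizing hormone (LH), so the vehicle follicles were gonadotropin-stimulated and not hormone-free. The vehicle cultures were collected at 12 h (3 pools) or 24 h (3 pools). The 12 arrays with AMH are not described here, and neither time nor dose was tested.

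A growing follicle is an oocyte enclosed by granulosa cells, with theca cells laid around it outside a basal lamina. Theca cells make androgens from cholesterol under LH. Granulosa cells respond to FSH, turn androgens into estrogens and secrete inhibins, activins and AMH. Growing oocytes build their zona pellucida and store maternal RNA and proteins for the embryo. RNA of a whole follicle therefore mixes several cell types.

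Signals were the authors' MAS5 intensities on a linear scale, in which the trimmed mean of each array was set to 150. The ranking used the mean of log2(signal + 16) over the 6 arrays, for 18193 genes that the array annotation names by a probe set with 1 gene symbol. Each gene was represented by its brightest such probe set. Rank 1 and percentile 100 are the brightest. Probe sets differ in how well they hybridise, so a rank is an order of brightness on this array, no ratio between genes is given, and a low signal is a level and not an absence. The middle of the ranking lay at a log2 value of 6.55 (a signal of 77.5), percentile 90 at 9.55 (733.9) and percentile 99 at 11.08 (2155).

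The 6 vehicle arrays ranked the genes alike. Across genes, which are not independent replicates, Spearman correlations of the 15 pairs of arrays lay between 0.94 and 0.98. The 12 h array of replicate 3 had the lowest median Pearson correlation with the others (0.951, against 0.959 to 0.979). The 3′ to 5′ signal ratio of the actin controls lay between 1.05 and 1.21. Between 39.1% and 45.4% of the probe sets had a signal under 16.

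Lgals1, which encodes the sugar-binding protein galectin-1, was the brightest gene. Its signals were 3715, 5244 and 4447 at 12 h and 4198, 4923 and 3819 at 24 h (log2 mean 12.09 ± 0.197, SD, n = 6). It ranked between 1 and 3 on every array. Ribosomal protein genes followed, with Rps29, Rpl38, Rps28, Rpl22 and Rps20 at ranks 2 to 6. Rps29, a protein of the small ribosomal subunit, had signals of 3854, 4993, 4391, 4095, 4690 and 3621 in the same order of arrays and also stayed between ranks 1 and 3. Of the brightest 40 genes, 16 were cytosolic ribosomal protein genes.

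The other genes of the brightest 40 fell into a few kinds. Malat1, a nuclear long non-coding RNA, ranked 7 and stayed between ranks 3 and 12. Tpt1, Naca and Hnrnpab belong to translation, protein targeting and RNA binding. Vim, Tuba1a, Tmsb10 and Actb are cytoskeletal. Ldha, Aldoa and Pkm are enzymes of glycolysis, and Ndufc1 is a subunit of respiratory complex I. Txn1 and Sod1 act against oxidants, and Fth1 stores iron. Pebp1, Hmgn1, Tsc22d1, S100a6, Mrpl52, Cstb and the non-coding AY036118 were also among them. Igfbp5, an insulin-like growth factor binding protein, was the only one of the 40 on the list of factors secreted in the follicle, at rank 39.

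The brightest 40 genes spanned log2 values of 11.54 to 12.09, and the median gene among them moved over 30.5 ranks between its best and its worst array. Of these 40, 16 were among the brightest 40 of every array, as were 48 of the brightest 100 and 335 of the brightest 500 at their own limits. Probe sets marked as able to cross-hybridise (x_at) represented 35% of the brightest 40, against 3.941% of all ranked genes. Of the brightest 500 genes, 494 were protein-coding and 4 were long non-coding, against 16473 and 1458 of all 18193 ranked genes.

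**Figure D1:**
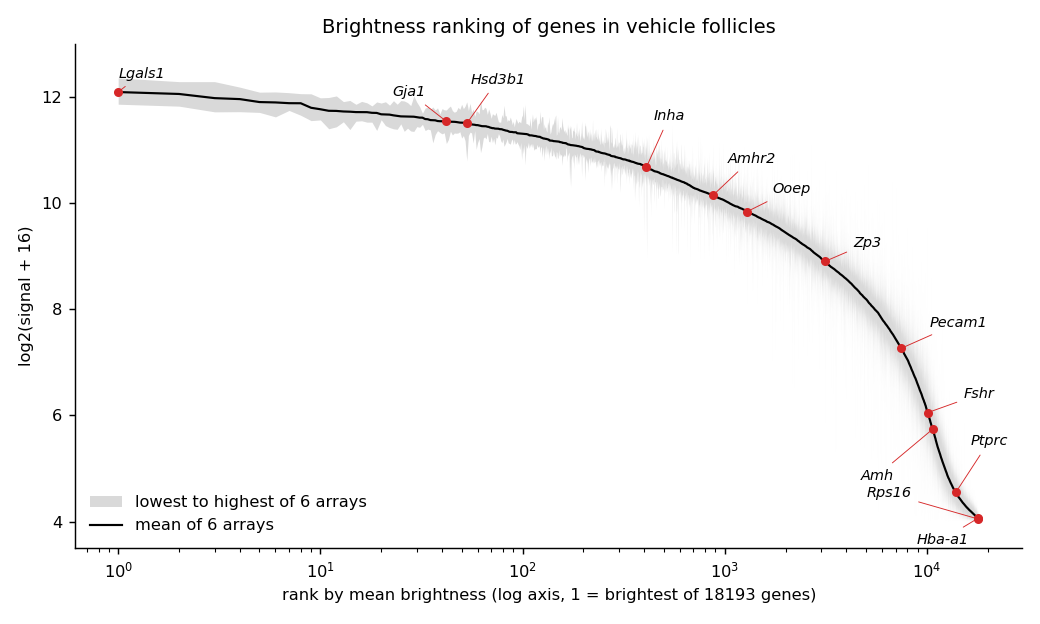
Mean log2(signal + 16) of 18193 genes against their brightness rank (log axis), with the line giving the mean of the 6 vehicle arrays, the grey band the lowest to highest array and red points named genes. The curve falls slowly from Lgals1 at 12.09 and steeply after rank 1000. Zp3 and Fshr lie far below the brightest ribosomal genes, while the ribosomal gene Rps16 and the globin gene Hba-a1 lie at the bottom.

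Cytosolic ribosomal protein genes had a median percentile of 99.6, and 35 of the 43 ranked lay at or above percentile 90. The median stayed between 99.3 and 99.7 on the 6 arrays. Rpl37 (percentile 24.0) and Rps16 (1.1) were the exceptions at the bottom, with signals of at most 14.7 and 1.90 on any array. A ribosome holds most of these proteins in equal numbers, yet the probe sets of the list spanned nearly the whole ranking. When only probe sets without a suffix letter were kept, the list median was 69.4. That choice dropped sets ending in a_at, s_at or x_at alike, and with them genes such as Rpl38 and Rpl10a that had no other.

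A pyrimidine run at the transcription start is a known feature of many mRNAs of the translation machinery. It was looked for as a C followed by at least 7 further C or T on the sense strand within bases -5 to +15. Of the 38 ribosomal protein genes on the list with a RefSeq promoter, 16 (42.1%) held it, against 5.57% of the 14452 ranked genes with a promoter and 5.11% of all 27025 promoters. Among the brightest 500 genes without the ribosomal list the share was 5.94%. The sequences of the 6 brightest such genes are given from -15 to +15 (RefSeq, GRCm38.p6), with the run in capitals, to show the bases around it. These 6 were picked because they hold the run, so that they share it is no result. They lie at chr11:114668565-114668594 (Rpl38, + strand), chr2:39005117-39005146 (Rpl35, - strand), chr17:27635230-27635259 (Rps10, - strand), chr7:45128731-45128760 (Rpl13a, - strand), chr14:24490663-24490692 (Rps24, + strand) and chr7:141447636-141447665 (Rplp2, + strand).
Rpl38: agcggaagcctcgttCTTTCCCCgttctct
Rpl35: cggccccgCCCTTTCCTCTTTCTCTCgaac
Rps10: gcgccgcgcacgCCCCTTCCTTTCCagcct
Rpl13a: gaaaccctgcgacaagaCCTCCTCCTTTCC
Rps24: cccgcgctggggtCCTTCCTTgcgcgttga
Rplp2: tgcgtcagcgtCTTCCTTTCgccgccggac

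Genes of translation, protein folding, cytoskeleton and energy supply filled the next levels. Translation factors had a median percentile of 98.5, and all 18 lay at or above percentile 90, from Tpt1 (rank 10) and the elongation factors Eef1a1 (44), Eef2 (129) and Eef1d (130) down to Eif4e (1552). Chaperones had a median of 98.4, with Hspa8 at rank 51 and the chaperonin subunits Cct3 and Tcp1 at 122 and 132. Oxidative phosphorylation genes had a median of 97.8, with 36 of 41 at or above percentile 90. Cox6a1, Atp5h and Cox7a2 followed Ndufc1 at ranks 56, 70 and 72, and Cox7c was the dimmest at percentile 49.8. Mitochondrial ribosomal protein genes were dimmer, with a median of 88.1 and 9 of 26 at or above percentile 90.

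Proteasome genes had a median percentile of 96.3, with Psmb4 at rank 144 and Psmd13 lowest at percentile 81.3. Antioxidant and glutathione enzymes had a median of 96.7, and Gsta4 and Gstp1 followed Txn1 and Sod1 at ranks 146 and 161. Glycolysis genes had a median of 93 over 17 ranked genes, from Ldha at rank 20 to Eno2, the isoform known from neurons, at percentile 51.0. Cathepsins led the proteases and their inhibitors (median 92.1), with Ctsl at rank 138 and Ctsb at 164, followed by the inhibitors Cst3 (388) and Timp1 (401). Mmp9 was the dimmest of that list at percentile 22.6.

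**Figure D2:**
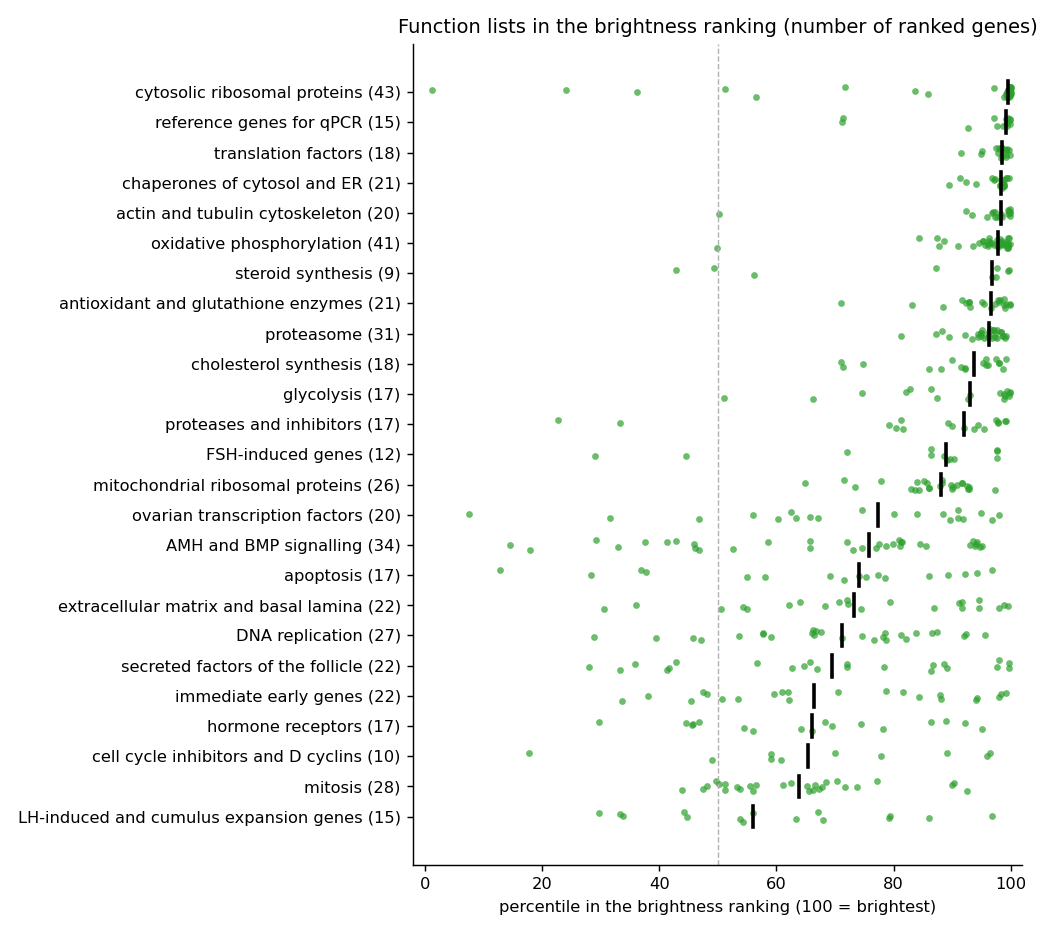
Percentile in the brightness ranking (100 = brightest) of each ranked gene, one point per gene, for 25 lists of genes by function, with the number of ranked genes in parentheses, a black bar at the list's median and a dashed line at percentile 50. Most ribosomal proteins, translation factors and chaperones are packed near the right edge, at list medians of 98.4 to 99.6. A few ribosomal proteins lie far to the left. Mitosis and the LH-induced genes spread widely around medians of 63.8 and 56.

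The steroid pathway was among the brightest of the specialised lists. Hsd3b1, which turns pregnenolone into progesterone, ranked 53, with signals of 2541, 1766 and 2934 at 12 h and 3455, 3833 and 3322 at 24 h. The 12 h array of replicate 2 was the lowest. Fdx1, the electron donor of mitochondrial steroid cytochromes, ranked 74 and varied little (2414 to 3343, SD 0.167). Cyp11a1, the side-chain cleavage enzyme that starts steroid synthesis, had signals of 1418, 483 and 2361 at 12 h and 2383, 2190 and 2124 at 24 h. Its value on the 12 h array of replicate 2 was far below the other 5, and it ranked between 114 and 3059. Star, which carries cholesterol into mitochondria, ranked 458, and Scarb1, a receptor for high-density lipoprotein, ranked 575.

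Later enzymes of the pathway were dimmer and more uneven. Hsd17b1, which makes estradiol from estrone in granulosa cells, had signals of 437, 495 and 118 at 12 h and 1216, 1169 and 1325 at 24 h. Cyp17a1, with which theca cells make androgens, had signals of 39.97, 21.7 and 737 at 12 h and 168, 29.8 and 421 at 24 h. It was highest on replicate 3 of each time and below the median signal of the ranking on 3 arrays. Hsd11b1 and Akr1c18, which inactivates progesterone, lay at percentiles 49.3 and 42.8. The list's median percentile over 9 ranked genes was 96.8, from 83.5 to 98.7 on the 6 arrays.

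Cholesterol synthesis, which supplies that pathway, had a median percentile of 93.7, and all 18 ranked genes lay at or above percentile 50. Hmgcs1, an early enzyme of the pathway, had signals of 1884, 2420 and 2241 at 12 h and 2815, 2537 and 2026 at 24 h and ranked 140. Insig1, which holds back the transcription factors of the pathway, ranked 249, followed by the enzymes Fdft1 (356) and Msmo1 (369). Tm7sf2 was the dimmest at percentile 71.0.

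The letters CCAAT, on either strand within 250 bases before the start, were held by 14 of the 15 cholesterol synthesis promoters in RefSeq (93.3%). The share was 78.3% (18 of 23) for mitosis genes, 70.6% (12 of 17) for chaperones, 42.5% for the brightest 500 genes, 35.7% for all ranked genes and 34.5% for all promoters. For comparison, cytosolic ribosomal proteins stood at 28.9%. A match is a description of letters and not a site of binding. Stretches of 30 bases around the match nearest the start are given for 3 genes of the list that hold it on the sense strand. These 3 genes are not the brightest of those counted above, where either strand was allowed. The stretches have the match in capitals, to show how its flanks differ. They lie at chr8:64733616-64733645 (Msmo1, - strand), chr5:4104709-4104738 (Cyp51, - strand) and chr3:89454393-89454422 (Pmvk, + strand) of GRCm38.p6.
Msmo1: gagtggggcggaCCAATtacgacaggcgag
Cyp51: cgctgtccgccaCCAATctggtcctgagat
Pmvk: aactcaggttggCCAATtcacagcatctag

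Markers of the cells of a follicle were ranked well above markers of other organs, as the label follicle implies. The median percentile was 89.3 for theca and interstitial cells, 79.2 for granulosa cells and 66 for the oocyte, against 26.6 for 27 markers of tissues outside the ovary. The order of the follicle's cell types depended on the probe set taken. With the dimmest probe set of each gene the medians were 83.94 for the oocyte, 79.68 for granulosa and 62.04 for theca, and with the median over probe sets 77.13, 77.83 and 62.75. On single arrays the oocyte median ran from 37.6 to 86.7 and the granulosa median from 57.5 to 85.9, while theca stayed between 82.9 and 92.4. Of those 27, 1 lay at or above percentile 50, namely Mbp, a myelin protein whose gene has other products, at 53.2. Prl (7.7) and Tnnt3 (6.6), of pituitary and muscle, were the dimmest. Red blood cell markers had a median of 18, and the globin gene Hba-a1 had signals between 0.375 and 0.964. Of the brightest 500 genes, 8 were cell markers, namely Gja1, Hsd3b1, Fdx1, Krt18, Inha, Cyp11a1, Star and Krt8.

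**Figure D3:**
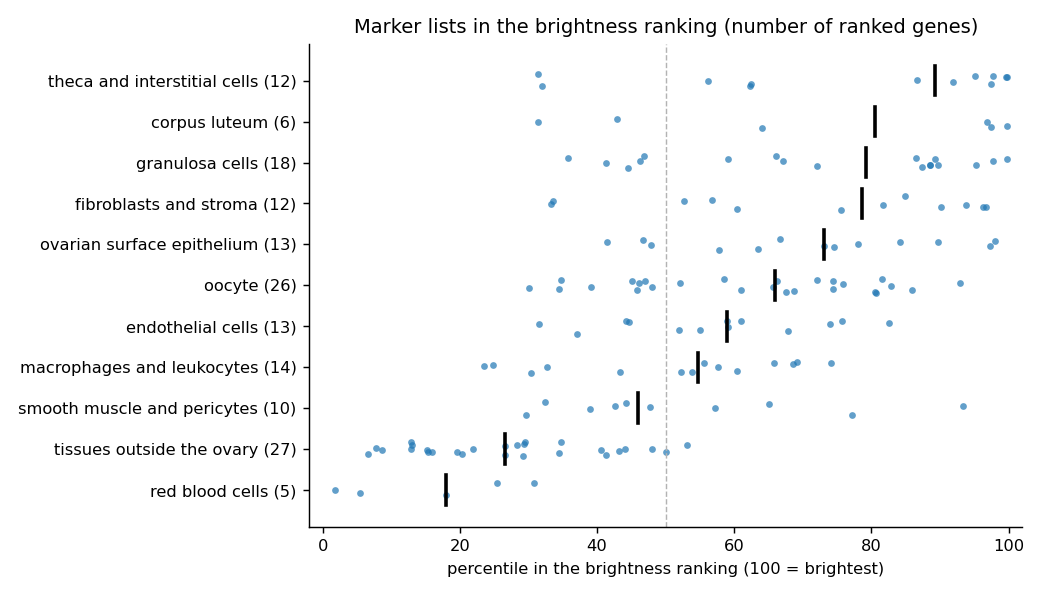
Percentile in the brightness ranking (100 = brightest) of each ranked marker, one point per gene, for 11 lists of cell type and tissue markers, with the number of ranked genes in parentheses, a black bar at the list's median and a dashed line at percentile 50. Medians run from 89.3 for theca and interstitial cells to 26.6 for tissues outside the ovary and 18 for red blood cells, and every list of ovarian cells spreads over more than 40 percentile points.

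Granulosa cell markers spread from percentile 99.8 to 35.8, with 13 of 18 at or above the middle. Gja1, which forms the gap junctions between granulosa cells, ranked 42 with signals of 2539, 3262 and 2218 at 12 h and 3443, 3180 and 3382 at 24 h. Inha, the alpha subunit of inhibin, ranked 410, with signals of 1469, 1745 and 796 at 12 h and 2142, 2149 and 1932 at 24 h. The 12 h array of replicate 3 was the lowest for both. The beta subunits Inhbb and Inhba lay at percentiles 89.2 and 86.4. Foxl2, the transcription factor that maintains granulosa identity, had signals of 477, 451 and 431 at 12 h and 1004, 862 and 1001 at 24 h (log2 mean 9.40 ± 0.581, SD, n = 6). The arrays of 24 h were all above those of 12 h for Foxl2.

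Fshr, the receptor for FSH, was dim on this array. Its signals were 37.4, 7.19 and 2.86 at 12 h and 213, 78.0 and 155 at 24 h, and it ranked anywhere between 5931 and 14938. Amh had signals of 76.3, 221 and 12.4 at 12 h and 21.7, 18.2 and 13.1 at 24 h (log2 mean 5.74 ± 1.22, SD, n = 6). Its 12 h array of replicate 2 stood highest, and of the other 12 h arrays replicate 1 lay above and replicate 3 below the 24 h values. Esr2 (46.8), Bex2 (46.3) and Ihh (35.8) were the other granulosa markers under the middle of the ranking. Each of these 5 genes was represented by its only probe set with 1 symbol.

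Kitl, the granulosa ligand of the oocyte receptor Kit, was the steadiest of the granulosa markers. Its signals were 585, 611 and 625 at 12 h and 689, 746 and 730 at 24 h (SD 0.141). Nr5a2, a nuclear receptor needed for ovulation, was far less steady, with 963, 430 and 203 at 12 h and 1144, 1194 and 1116 at 24 h. Fst, which binds activin, lay between 249 and 442 on 5 arrays and at 82.0 on the 12 h array of replicate 3. Wt1, Nap1l5 and Gatm lay at percentiles 67.1, 66.1 and 59.0.

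Oocyte markers reached percentile 92.9 and fell to 30.1, with 17 of 26 at or above the middle. Ooep, a protein of the oocyte's subcortical maternal complex, was the brightest at rank 1293, with signals of 1205, 2058 and 260 at 12 h and 502, 1710 and 943 at 24 h. Zp3, a protein of the zona pellucida, had signals of 846, 1786 and 41.9 at 12 h and 158, 1172 and 625 at 24 h (log2 mean 8.90 ± 1.88, SD, n = 6). It ranked 456 on its best array and 10122 on its worst. In such bulk samples fewer cells of a type and less RNA per cell cannot be told apart. Of the other zona proteins, Zp2 lay at percentile 68.8 and Zp1 at 58.4.

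The remaining oocyte genes followed the same order of arrays with few exceptions. Gdf9 and Bmp15, growth factors that the oocyte sends to granulosa cells, had signals between 33.1 and 771 and between 15.8 and 549. Nlrp14 and Nlrp5, genes of the maternal store, had SDs of 1.98 and 1.76. The transcription factors Nobox (percentile 52.1), Lhx8 (46.9), Figla (34.8) and Sohlh1 (34.4) are regulators of oocyte genes, and Oosp1 (81.5), an oocyte-secreted protein, was brighter on its own probe set. The germ cell RNA-binding genes Dazl (46.1) and Ddx4 (30.1) were also in the lower part. Tle6 and Khdc3, of the subcortical maternal complex like Ooep, lay at 85.9 and 39.2, and the maternal gene Dppa3 at 74.4. Of the other maternal genes, Btg4, which promotes decay of maternal RNA, lay at 74.3, Zar1 at 67.5, Padi6 at 66.3 and H1f8, the linker histone of the oocyte, at 61.0. Gtsf1, a gene of the piRNA pathway, lay at 47.9, Mos, the kinase that holds the egg at metaphase, at 45.1, and Bcl2l10, of the Bcl2 family, at 80.6. Kit was unlike the others, with signals of 46.6 to 66.0 and an SD of 0.141.

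The letters CANNTG, which read the same on both strands and are the core bound by basic helix-loop-helix factors such as Figla, were looked for within 250 bases before the start. They occurred in 16 of 19 oocyte promoters (84.2%), against 60.8% of all ranked genes, 55% of the brightest 500 and 66% of all promoters. Leukocyte and stromal markers, dim or bright, had shares of 88.9% (8 of 9) and 83.3% (5 of 6), so the share was high in other marker lists too. The 250 bases before the start of Zp3 are shown with the matches in capitals, because Zp3 is the brightest zona gene and holds 3 matches (RefSeq, GRCm38.p6, chr5:135979855-135980104, + strand).
Zp3: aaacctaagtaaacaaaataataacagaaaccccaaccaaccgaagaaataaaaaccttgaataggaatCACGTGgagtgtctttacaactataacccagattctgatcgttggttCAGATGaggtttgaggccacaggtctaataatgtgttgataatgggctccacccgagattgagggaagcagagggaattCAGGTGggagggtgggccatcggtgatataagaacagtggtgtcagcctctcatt

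Theca and interstitial markers were led by the steroid genes Hsd3b1, Fdx1, Cyp11a1 and Star, which granulosa and luteal cells also express. Among markers outside the steroid pathway, Aldh1a1, which makes retinoic acid, ranked 904 and the nuclear receptor Nr2f2 ranked 1487. Ptch1, the hedgehog receptor, ranked 2425 with signals of 466 to 657. Gli1 (32.0) and Hhip (31.4), which hedgehog signals induce, were among the dimmer genes. When the median over a gene's probe sets was used in place of the brightest, the median percentile of the list moved from 89.3 to 62.75. It was 92.79 over probe sets without a suffix letter.

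Markers of other ovarian cells were measured in every pool. Fibroblast and stroma markers had a median percentile of 78.6, led by the collagens Col3a1 (rank 605) and Col1a2 (693), with Fap and Mfap5 lowest at 33.3 and 33.6. Ovarian surface epithelium markers had a median of 73.1. Krt18 (rank 358) and Krt8 (485), keratins that simple epithelia share, were the brightest, and Lrrn4 and Muc16, mesothelial genes, lay at 46.6 and 41.4. Corpus luteum markers had a median of 80.4, carried by the steroid genes that the list shares with theca. Ptgfr, the prostaglandin F receptor known for its place in luteal regression, had signals of 2.08 to 57.9.

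Blood vessel and immune markers were dimmer. Endothelial markers had a median of 59, with Emcn (82.6), Cdh5 (75.7) and Egfl7 (73.9) brightest and Vwf (31.6) dimmest. Macrophage and leukocyte markers had a median of 54.7. Csf1r, the receptor that macrophages need to survive, was the brightest at percentile 74.0, with signals of 526, 1077 and 528 at 12 h and 86.4, 90.2 and 246 at 24 h. Lyz2 went the other way, with 99.4, 105 and 246 at 12 h and 314, 295 and 662 at 24 h. Ptprc, the antigen CD45 of all leukocytes, lay at percentile 23.5, with signals of 2.04 to 13.0. Smooth muscle and pericyte markers had a median of 45.9, although Acta2 ranked 1224.

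Receptors were mostly in the middle of the ranking, with a median percentile of 66 over 17 genes. Amhr2, the type 2 receptor of AMH, was the brightest at rank 876, with signals of 855, 1391 and 543 at 12 h and 1332, 1522 and 1500 at 24 h. It thus stood far above its ligand Amh in rank, although the rank of each depends on its probe set. Amhr2 came from an x_at probe set, and its 3 probe sets lay between percentiles 81.3 and 96.3 of all probe sets. The membrane progesterone receptor components Pgrmc1 and Pgrmc2 lay at 92.2 and 88.9, and Igf1r, the receptor of insulin-like growth factor 1, at 86.4.

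Further down, the growth hormone receptor Ghr lay at 78.2, Egfr, which takes up the signal of EGF-like factors, at 74.5, and the insulin receptor Insr at 69.4. The prostaglandin E receptors Ptger2 and Ptger4 lay at 68.3 and 54.4, the glucocorticoid receptor Nr3c1 at 66.0 and the estrogen receptor Esr1 at 56.1. Npr2, through which granulosa cells keep the oocyte in meiotic arrest, lay at 64.2, and its ligand Nppc at 56.7. Adcyap1r1, a receptor of the peptide PACAP, lay at 45.7. Pgr, the nuclear progesterone receptor that the LH surge induces, was the dimmest at 29.6, with signals of 9.01 to 19.1.

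The components that carry AMH and BMP signals spread from percentile 95.2 to 14.4. The type 2 receptor Bmpr2 ranked 949, with Bmpr1a, a type 1 receptor used by AMH, at 1157 and the common mediator Smad4 at 1268. Acvr1 lay at percentile 76.9. Bmpr1b had signals of 338, 188 and 25.9 at 12 h and 722, 495 and 624 at 24 h. Among the SMADs that these receptors phosphorylate, Smad1 lay at 85.5, Smad5 at 81.4 and Smad9 at 17.9, with Smad9 at a signal of 7.44 or less on every array. The target genes Id3, Id2, Id1 and Id4 lay at 94.3, 78.7, 77.5 and 46.0.

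Bmp6, made by the oocyte, was the brightest BMP ligand at percentile 84.5, with signals of 677, 1263 and 224 at 12 h and 319, 418 and 679 at 24 h. Bmp2 (42.9), Bmp4 (37.6) and Bmp7 (33.0) were dimmer. The antagonists Bambi (58.6), Grem1 (46.7), Chrd (29.2) and Nog (14.4) followed, and the inhibitory Smad7 and Smad6 lay at 74.7 and 52.6. Grem1 had signals of 209, 208 and 27.1 at 12 h and 39.0, 26.2 and 23.8 at 24 h. On the list as a whole, 24 of 34 genes lay at or above the middle, and 7 at or above percentile 90. These AMH and BMP genes other than the brightest 4 and dimmest 2 were named after their values were seen.

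Secreted factors were led by Igfbp5, with signals of 2563 to 3260, and Clu (rank 47), a secreted chaperone. Igfbp4 ranked 375. Vegfa, the main angiogenic factor, lay at percentile 86.8 and Igf1 at 78.4. Igfbp2 (66.9), the hedgehog ligand Dhh (64.6) and Angpt2 (62.6) were in the middle. Edn1 (41.6), Edn2 (33.4), an endothelin that rises at ovulation, and Fgf8 (28.1), made by the oocyte, were dim.

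Among transcription factors, Cebpb, which mediates the LH response, was the brightest at rank 367 and steady, with signals of 1585 to 2109. Runx1 ranked 580 and Gata4 909. Foxo3 and Foxo1, which hold back growth downstream of PI3-kinase, shared percentile 91.1. Gata6 had signals of 586, 639 and 170 at 12 h and 549, 664 and 648 at 24 h, so the 12 h array of replicate 3 was again the low one. Nr5a1, the master regulator of steroid genes, lay at 80.1 and Cebpa at 74.7. Emx2 (65.8), Sox9 (63.4), Tcf21 (62.4) and Lhx9 (60.3) formed the middle. Nr0b1 (31.6) and Dmrt1 (7.5), a factor of the testis, were the dimmest, and Dmrt1 had signals of at most 4.01.

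Genes known to respond to gonadotropins were described by 2 lists. FSH-induced genes had a median percentile of 88.9, with Inha, Cyp11a1, Sgk1 (rank 426) and Prkar2b (1751) brightest and Tnfrsf11b dimmest at 29.0. LH-induced and cumulus expansion genes had a median of 56, from 48.4 to 78 on the 6 arrays. Runx1 led, followed by Nrip1 (86.0) and by Ereg (79.4), an EGF-like factor with signals of 657, 574 and 892 at 12 h and 152, 196 and 320 at 24 h. Adamts1, a protease of ovulation, lay at 79.3. Edn2 and Pgr closed the list. Among its other members, Ptx3, a protein of the cumulus matrix, had the largest spread, with signals of 116, 735 and 38.9 at 12 h and 9.17, 12.5 and 7.41 at 24 h (SD 1.95). Sult1e1, Btc, Ptgs2 and Tnfaip6 also had SDs above 1 (1.42, 1.27, 1.13 and 1.08). These 5 genes were named after their values were seen.

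Genes of the cell cycle lay in the upper middle. DNA replication genes had a median of 71.3, with Pcna at rank 787 and Mcm6 and Mcm7 at 1381 and 1448. Mitosis genes had a median of 63.8, from 53.3 to 76.2 on the 6 arrays. Ube2c, Cdca8 and Incenp were the brightest at ranks 1354, 1750 and 1833. Ube2c had signals of 1260, 1721 and 1061 at 12 h and 482, 726 and 557 at 24 h. The inhibitors Cdkn1b and Cdkn1a ranked 628 and 743, and Cdkn2a lay at percentile 17.7.

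Immediate early genes ranged from Ier3 (rank 157), Jund (297) and Fosl2 (378) to Fosb (38.0) and Nr4a3 (33.7). Dusp1, a phosphatase of the MAP kinases, had signals of 944, 1666 and 1314 at 12 h and 664, 672 and 1162 at 24 h. Apoptosis genes had a median of 74.1, with the survival gene Mcl1 at rank 571 and its partner Bak1 at 1060. The death ligand Fasl (12.8) and its receptor Fas (28.4) were the dimmest. Extracellular matrix genes had a median of 73.3, led by Sparc (rank 80) and the basal lamina collagens Col4a1 (222) and Col4a2 (374). Col4a3 and Col4a4, chains of another collagen IV network, were the dimmest, with Col4a3 at 30.6.

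The spread between the 6 arrays was small for most genes and large for a few lists. The median SD was 0.245 on the log2 scale over all genes and 0.219 when taken within each time. Each array is 1 pool, so this SD holds the spread of pools, of times and of the assay together. It was smallest among the dimmest genes (0.0875), where the added 16 flattens differences, highest at percentiles 40 to 50 (0.395), and 0.204 in the brightest decile. An SD above 1 was found for 296 genes, 1.63% of all, but for 20 of the 26 oocyte genes, 5 of 18 granulosa genes, 3 of 13 endothelial genes, 5 of 15 LH-induced and cumulus expansion genes, 5 of 34 AMH and BMP genes, 3 of 12 FSH-induced genes and 0 of 15 reference genes.

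Oocyte genes moved together across the pools. Their median difference from the mean of the 6 arrays was 0.54, 1.35 and -2.24 at 12 h and -0.78, 1.07 and 0.12 at 24 h for replicates 1 to 3. The 12 h array of replicate 3 was the lowest for 22 of 26 oocyte genes, against 29.3% of all genes. The 12 h array of replicate 2 was the highest for 23 of 26, against 25% of all genes. Within 12 h, 25 of 26 had the order replicate 2, replicate 1, replicate 3 (25.9% of all genes), and within 24 h, 23 of 26 had the order replicate 2, replicate 3, replicate 1 (17.4%). The median over all genes moved by no more than 0.05 from its mean on any array.

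Other cell types followed other orders, although granulosa markers shared the lowest array of the oocyte markers. Granulosa markers were lowest on the 12 h array of replicate 3 for 16 of 18 genes, against 29.3% of all genes, with a median difference of -0.96, and stood at 0.42 to 0.51 on the 24 h arrays. Endothelial markers were highest on that 12 h array for all 13 genes, with a median difference of 1.48, against 18.4% of all genes. Theca and interstitial markers were lowest on the 12 h array of replicate 2 for 11 of 12 genes (-0.71), against 20.3% of all genes. Surface epithelium markers were lowest on the 12 h array of replicate 1 for 9 of 13 (-1.08), against 8.82% of all genes, and highest on the 24 h array of replicate 2 for 9 of 13 (0.90), against 14%. Muc16, of that list, had signals of 13.5, 17.1 and 29.1 at 12 h and 57.4, 87.0 and 56.3 at 24 h, so its arrays of 24 h were all above those of 12 h. Leukocyte markers were highest on the 24 h array of replicate 3 for 10 of 14 genes (0.66), against 12% of all genes.

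Mitosis genes were highest on the 12 h array of replicate 2 for 25 of 28, against 25% of all genes, and lowest on the 24 h array of replicate 1 for 20 of 28, against 15.4%. Their median percentile was 53.3 to 58.8 on the 24 h arrays and 61.8 to 76.2 on the 12 h arrays. The lists that encode the basic machinery of the cell stayed close to the mean. The medians of ribosomal proteins, oxidative phosphorylation, chaperones and proteasome lay between -0.21 and 0.21 on every array. Some marker lists stood out on single arrays and some differed between all arrays of the 2 times. Pool and assay cannot be told apart, as each array is 1 pool. Each time had 3 pools, and no effect of time was tested. The part of pool, time and assay in the level of any single gene was not tested either.

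**Figure D4:**
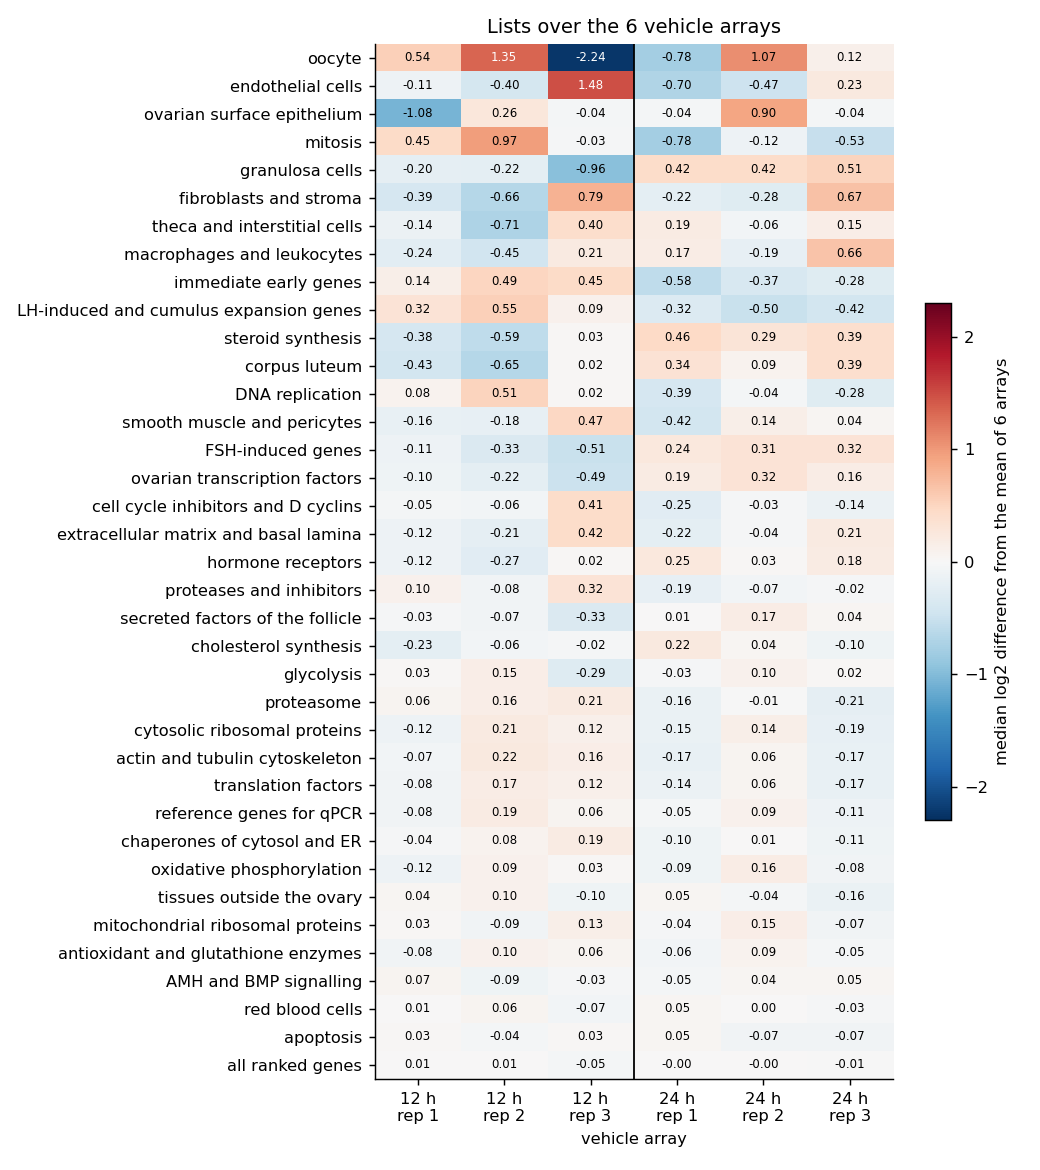
Median over the genes of each list of the log2 difference from the mean of the 6 vehicle arrays, with one column per array, red above and blue below the mean, and the value printed in each cell. Oocyte markers run from -2.24 to 1.35 and endothelial markers reach 1.48 on the 12 h array of replicate 3, while all ranked genes stay between -0.05 and 0.01.

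The genes that varied most and least among the brightest 1000 differed in kind. Atp1b2, a sodium pump subunit, varied most (SD 0.943), with signals of 993, 472 and 560 at 12 h and 1603, 2215 and 2066 at 24 h. Cyp11a1 came next (0.883), then Greb1, a hormone-regulated gene, Zbed3, a gene of the oocyte's maternal complex, Phgdh, of serine synthesis, Gpam, Bex4, Acsbg1, C1galt1, Dsp, Bnip3 and Vldlr. Zbed3 had signals of 1593, 2805 and 522 at 12 h and 1090, 2122 and 1459 at 24 h, which is the order of arrays that the oocyte markers had.

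The steadiest was Cope, a coat protein of Golgi vesicles, with signals of 1191 to 1282 (SD 0.039). Dnajb11, Ndrg2, Son, Rab11b, Dnajb6, Ube2d2a, Srsf10, Trim44, Glud1, Pdia3 and Nedd4 followed, with SDs up to 0.071. These 12 were picked for the smallest SDs among the brightest 1000, so a larger SD of any other gene in that set follows from the choice. The SDs of some common reference genes for PCR are given beside them. Tbp and Gusb, at ranks 5210 and 5240, lie outside that set. Pgk1 had an SD of 0.095, Actb of 0.144, Tbp of 0.137 and Gusb of 0.516. Gusb ran from 131 to 381.

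Genes with several probe sets showed how much a rank owes to the probe set. Over 9010 genes with at least 2 probe sets, the brightest and the dimmest of a gene lay a median of 20.9 percentile points apart. The distance exceeded 50 points for 17.6% of them. For the 4315 genes with 3 or more the median was 33.4. Among these, Tmem109, a nuclear membrane protein, had the most distant probe sets, at percentiles 99.1 and 0.0258 of all probe sets. Selenot (98.1 and 0.804), the RNA helicase Ddx5 (98.8 and 1.49) and the tropomyosin Tpm1 (98.7 and 1.67) came close, as did Khdrbs1. Of the brightest 100 genes, 46 were still among the brightest 100 when the dimmest probe set of each gene was taken, and 35 when only probe sets without a suffix letter were kept.

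Promoter sequence, which the ranking did not use, changed along it. The ratio of observed to expected CG pairs exceeded 0.6 in 15% of the promoters (250 bases before to 50 after the start) of the dimmest decile of the genes, 59.3% at percentiles 40 to 50 and 81.2% of the brightest decile. It was 57% over all ranked genes with a promoter. By list, it was 96.8% for oxidative phosphorylation and 86.8% for ribosomal proteins, but 42.9% for granulosa markers, 33.3% for theca markers, 26.3% for the oocyte and 5.26% for tissues outside the ovary. Brightness and list were not separated.

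The letters TATAAA on the sense strand between bases -40 and -21, where a TATA box lies, ran against brightness up to percentile 80. They occurred in 7.01% of the promoters of the dimmest decile, 0.535% at percentiles 70 to 80 and 1.38% of the brightest decile. Over all ranked genes the share was 2.39%, on the reverse strand 0.491%, and 2.09% of all promoters in RefSeq held them. Of the 416 promoters of the brightest 500 genes, 5 (1.2%) held them. These belong to Vim, an intermediate filament of mesenchymal cells, Sod1, superoxide dismutase, Rpl22l1, a paralog of a ribosomal protein, Igfbp4 and Emp3, a membrane protein.

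The bases -45 to -16 of these 5 genes are shown with the match in capitals. Tshb, a pituitary hormone subunit and the dimmest of the genes of other organs that holds it, follows. All were picked because they hold the match, so that they share it is no result. They lie at chr2:13574266-13574295 (Vim, + strand), chr16:90220717-90220746 (Sod1, + strand), chr3:28805463-28805492 (Rpl22l1, + strand), chr11:99041199-99041228 (Igfbp4, + strand), chr7:45921442-45921471 (Emp3, - strand) and chr3:102782730-102782759 (Tshb, - strand) of GRCm38.p6.
Vim: ttcctaacagtgtTATAAAagcagcgccct
Sod1: ctcaggccTATAAAagctccgtggcgccag
Rpl22l1: gacgcagcacgtttttaTATAAAagcgtgc
Igfbp4: tgtggccagggggccggTATAAAgtcccgg
Emp3: gtggaTATAAAagggttggtatatattgag
Tshb: gcaattcgaatgcaattaTATAAAcaagaa

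**Figure D5:**
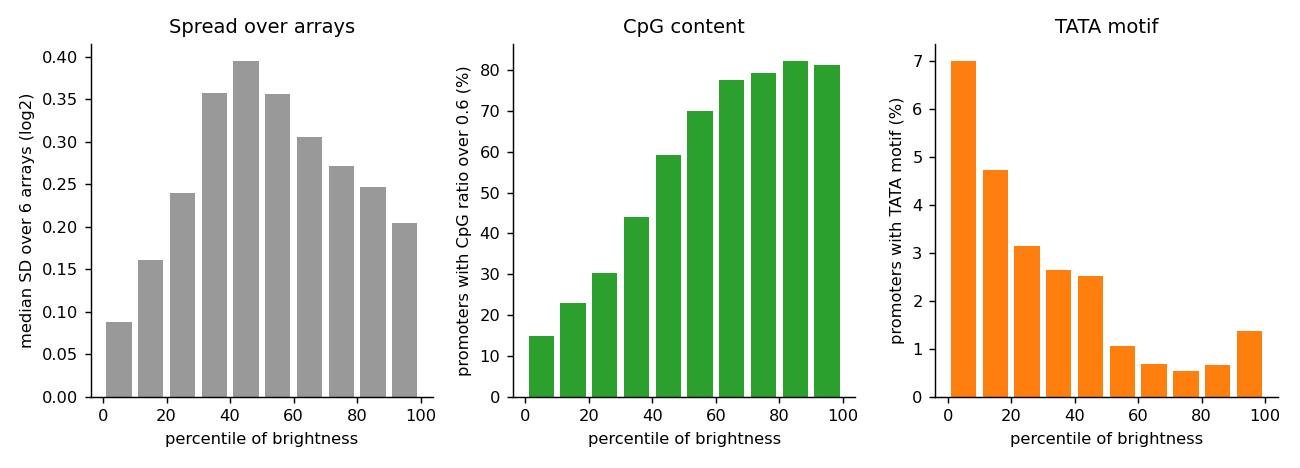
Bar charts over deciles of the brightness ranking (percentile on the x axis, 100 = brightest), giving the median SD over the 6 arrays (log2), the percent of promoters with a CG ratio over 0.6 and the percent with TATAAA between bases -40 and -21. The SD peaks at 0.395 in percentiles 40 to 50, the CG share climbs from 15% to 81.2%, and the TATA share falls from 7.01% to under 1% before it reaches 1.38% in the brightest decile.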

How the data were processed

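Total RNA (5 ng per culture) was amplified and hybridised to Affymetrix mouse arrays of 45101 probe sets, per the labels' protocols. The deposited values are signal intensities on a linear scale that the authors computed with MAS5 (per the submitters' processing notes, version not given), and the 2% trimmed mean of each array was 150 when checked. They were used as deposited. After 64 controls were left out, 34945 probe sets had 1 symbol in the platform annotation, 932 had several and 9160 had none, and only those with 1 were ranked, which leaves out some genes. Log2 was taken after adding 16, each gene took its probe set with the highest mean over the 6 vehicle arrays, and 644 of 729 list symbols were ranked. Some well-known ovarian genes are not reported here.

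The ranking, percentiles and SDs describe 6 arrays, each a separate pool, and no test was run. Their number limits the precision. The same replicate number at 12 and 24 h is not the same pool. The members and gene lists were chosen with earlier results of these data known. The rule for named genes took the 40 brightest genes, the 4 brightest and 2 dimmest of each list, any member of the granulosa, oocyte, receptor, secreted factor and transcription factor lists, the 12 most and 12 least variable of the brightest 1000, and the 5 genes with 3 or more probe sets whose probe sets differed most. Other genes named were chosen after their values were seen. Promoters were RefSeq's (GRCm38.p6, the first entry of each gene), matched by symbol for 14452 of 18193 genes. The ranking script was tested on simulated data. Alternatives changed the pseudocount (1 or 50), normalization, probe set choice, filter, averaging and the arrays used. Python 3.11.15, pandas 2.3.3 and numpy 2.4.6 were used, with figures drawn in matplotlib 3.10.9.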

Additional observations from a re-analysis of the deposited data

Results flagged for a closer look

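Of 36 lists and 109 genes examined over the 6 vehicle arrays, 1 list and 3 genes had an array whose gap to the nearest other array, divided by the whole range, was above the critical value of Dixon's ratio. Chance alone passes this limit in about 1 in 20 groups, which is more often than it was passed here. The cell cycle inhibitors and D cyclins stood at a median log2 difference of 0.415 on the 12 h array of replicate 3, against -0.253 to -0.033 on the others. Bcl2l10, an oocyte gene of the Bcl2 family, had a log2 value of 5.306 on the same array, against 8.755 to 9.984. Fst, which binds activin, had 6.615 there, against 8.049 to 8.840. Cyp11a1, the side-chain cleavage enzyme, had 8.964 on the 12 h array of replicate 2, against 10.486 to 11.228. No cause was tested.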

How the results depend on the processing

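No paired analysis was possible because the results come from no test and the replicate numbers of 12 and 24 h name different pools. The pseudocounts 1 and 50 and quantile normalization moved none of the 36 list medians beyond the spread between arrays, while the median over probe sets moved 15, the dimmest probe set 22 and probe sets without a suffix letter 16. The median SD of all genes, 0.2451, became 0.4399 with pseudocount 1, 0.1776 with 50, 0.2246 with the median over probe sets, 0.2266 with the dimmest, 0.2677 without genes under the median, 0.2273 and 0.1679 from the 12 h or 24 h arrays alone and 0.2188 within each time (0.2206 to 0.2518 with an array left out). The theca median became 62.75 with the median over probe sets, 62.04 with the dimmest and 92.79 without suffix letters, and ribosomal proteins 94.81 with the dimmest, 69.4 without suffix letters and 99.33 without genes under the median. Tissues outside the ovary became 30.4 with the dimmest and 6.311 without genes under the median. The median of the 36 list medians, 78.02, became 75.59 with the dimmest probe set, 68.16 without genes under the median and 75.8 at 12 h alone. The share of the brightest 500 promoters with a CG ratio over 0.6, 81.49%, became 79.62% with the median over probe sets and 79.76% with the dimmest and at 24 h alone. The brightest 100 genes shared 46 with the dimmest and 35 without suffix letters. With each array left out in turn, values ran from 77.02 to 79.51 for the median of the list medians, 77.47 to 82.3 for granulosa, 61.21 to 74.09 for oocyte, 88.17 to 90.04 for theca, 25.53 to 28.56 for tissues outside the ovary and 99.58 to 99.65 for ribosomal proteins. Shared genes ran from 95 to 98, the CG share from 81.01% to 81.97%, and the distance between probe sets of a gene from 20.59 to 21.09 points. The cause of these moves was not tested, and signals near background limit what ranks under the middle can tell.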

Other observations

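The genes with the largest spread over the 6 vehicle arrays at or above percentile 50 were not all markers of a listed cell type, and they were named here after their values were seen. Nts, the neuropeptide neurotensin, had the largest SD (2.01 on the log2 scale), with signals of 796, 1696 and 666 at 12 h and 72.7, 76.4 and 53.5 at 24 h, and its SD within each time was 0.52. For Nlrp14, an oocyte gene, the SD within each time (2.20) was no smaller than that over all 6 arrays (1.98).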
